A study of Oryza sativa with 6 samples.

Results

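Primary wall cellulose synthases are the 5 rice genes CESA1, CESA3, CESA5, CESA6 and CESA8. They were chosen by their Rice Annotation Project identifiers, and each identifier matched 1 gene model among the 37942 gene models of the tables. All 5 passed the filter on low counts that left 20136 genes for testing. The samples were roots of rice, Oryza sativa, with the genotype label Mulai. Strand-specific mRNA libraries were made from nodal roots, which emerge from the stem, and from lateral roots of a short, unbranched S-type and a longer, branching L-type. Each root type was sampled under control conditions and after 7 days with 50 mM NaCl. With 1 library in each of the 6 groups, no value below carries a spread between plants.

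Cellulose is made at the plasma membrane by rosette-shaped complexes whose catalytic subunits are the CESA proteins, which join glucose from UDP-glucose into glucan chains. Separate sets of CESA genes serve the thin primary wall of growing cells and the thick secondary wall of vessels and fibres. In rice CESA4, CESA7 and CESA9 serve the secondary wall, and mutants in them have brittle culms. In roots, primary wall cellulose is laid down in the elongation zone and restrains the direction in which cells expand.

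The libraries held 5620282 to 8711710 fragments in genes, the fewest in control L-type and the most in salt S-type roots. The 5 genes took up 0.450% of these fragments in nodal, 0.224% in L-type and 0.115% in S-type roots under control. The root label was set against listed markers. CASP1 and Lsi1, genes of the root endodermis and its silicon uptake, had a summed FPKM of 404.6 to 2696 in every library, and 3 genes of green tissue had 3.64 to 33.1. EXPA17, an expansin gene of root hairs, was low in both kinds of lateral root. It was at 0 fragments in control S-type and 3 in salt S-type roots, and at 10 and 14 in control and salt L-type roots. Control and salt nodal roots had 112 and 158.

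CESA1 (Os05g0176100, chromosome 5, 4565244 to 4571358 on IRGSP-1.0) had 6867 scaled fragments in nodal, 3282 in L-type and 2118 in S-type roots without salt. A scaled fragment is a fragment count that the authors multiplied by 1 factor per library. With salt it had 5389.5 in nodal, 4269 in L-type and 2386 in S-type roots. Both nodal libraries were above both L-type libraries, and these were above both S-type libraries.

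CESA3 (Os07g0424400, chromosome 7, 13741533 to 13747205) had the widest range of the 5 genes, 6.10-fold between its highest and lowest library. Its nodal libraries had 8258 scaled fragments under control and 7359.9 under salt, its L-type libraries 2873 and 4769, and its S-type libraries 1359 and 1353. Nodal roots were thus well above both kinds of lateral root. The 2 S-type libraries could not be ordered, since the counting interval of their log2 ratio, -0.11 to 0.12, holds 0.

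CESA5 (Os03g0837100, chromosome 3, 35177460 to 35183317) had the narrowest range, 1.57-fold. Its nodal libraries had 2387 scaled fragments under control and 1949 under salt, its L-type libraries 1699 and 1913, and its S-type libraries 1519 and 1527. The salt L-type and salt nodal libraries could not be ordered, with a counting interval of -0.06 to 0.11 for their log2 ratio, nor could the S-type libraries.

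CESA6 (Os07g0252400, chromosome 7, 8496288 to 8501904) had 6786 scaled fragments under control and 4966 under salt in nodal roots, 4559 and 3837 in L-type roots, and 1956 and 2187 in S-type roots. It differed from the other 4 genes in that its control L-type library was above its salt L-type library.

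CESA8 (Os07g0208500, chromosome 7, 5852772 to 5858718) had 6575 scaled fragments under control and 5287 under salt in nodal roots, 3390.0 and 3991 in L-type roots, and 2275 and 2363 in S-type roots, the last pair within counting error. In scaled fragments the 2 nodal libraries were the highest and the 2 S-type libraries the lowest for all 5 genes, with salt nodal and salt L-type of CESA5 within counting error. In FPKM this order did not hold for CESA5 and CESA6. CESA5 had 118 in control S-type, 112 in control L-type, 100 in salt nodal and 88.9 in salt L-type roots. CESA6 had 291 in control L-type and 271 in salt nodal roots.

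**Figure D1:**
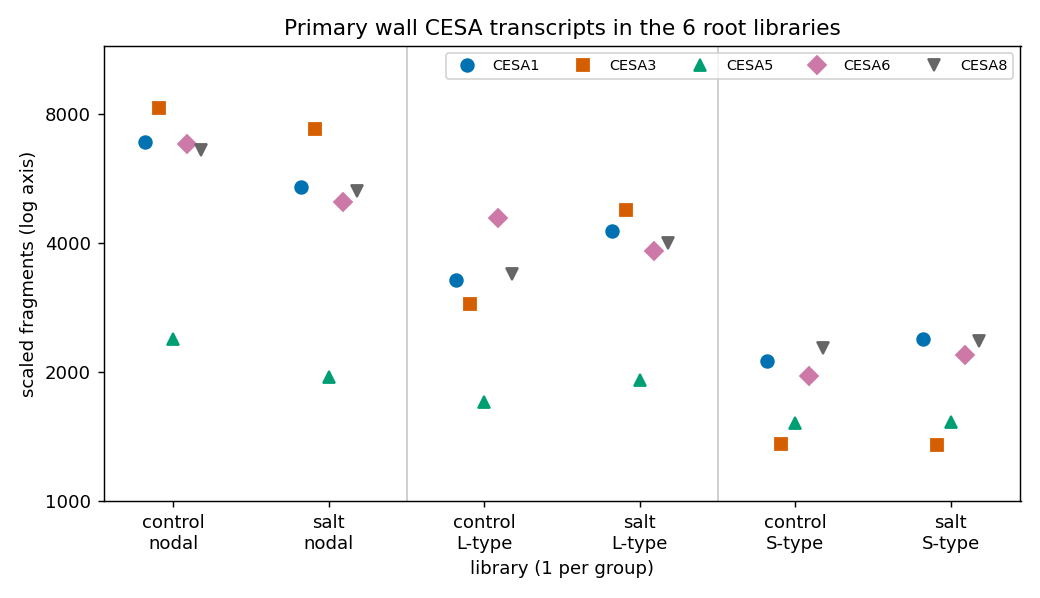
Scaled fragments (vertical log axis) of the 5 primary wall CESA genes in each of the 6 libraries (horizontal axis, 1 point per gene and library). The nodal libraries lie highest and the S-type libraries lowest for every gene, with CESA3 going from 8258 in control nodal to 1353 in salt S-type roots.

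The first comparison is between root types. Transcripts of all 5 genes were lower in S-type lateral than in nodal roots, from 1.43-fold for CESA5 to 5.80-fold for CESA3. An additive limma model over all genes was used, with root type and treatment. Its 2 residual degrees of freedom measure how far a root type difference varies between treatments, not a spread between replicates. All 5 members passed an adjusted p of 0.05 as lower, where 28.0% of all tested genes did. The median log2 difference of the members was -1.45, against -0.004 over all tested genes. In whole roots, fewer cells of a growing type and less RNA per cell cannot be told apart.

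In S-type against nodal roots CESA3 fell by a log2 difference of 2.54 (SE 0.23, limma adjusted p = 0.000551), with -2.60 within control and -2.44 within salt. CESA6 fell by 1.50 (2.83-fold, SE 0.19, limma adjusted p = 0.00131), CESA1 fell by 1.45 (SE 0.20, limma adjusted p = 0.00182) and CESA8 fell by 1.36 (SE 0.17, limma adjusted p = 0.0014). These 3 genes lay within 0.15 of each other, well inside the 95% interval of each. CESA5 fell by 0.52 (SE 0.15, limma adjusted p = 0.0277). Its 95% interval of -0.88 to -0.15 lies apart from that of CESA3, -3.09 to -1.98, and from those of the other 3. The upper ends of these 3 were -1.05 for CESA6, -0.97 for CESA1 and -0.94 for CESA8. The call of CESA5 was lost without the control nodal library (limma adjusted p = 0.236), without the control S-type library (0.156) and without the salt S-type library (0.0959).

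In the fitted values L-type lateral roots lay between the other root types for every member. Against S-type roots 4 of the 5 genes were higher, where 18.8% of all tested genes were, and the members' median log2 difference was 0.75 against -0.00011 over all tested genes. CESA3 was higher by 1.46 (SE 0.23, limma adjusted p = 0.00655), CESA6 by 1.03 (SE 0.19, limma adjusted p = 0.0101), CESA1 by 0.75 (SE 0.20, limma adjusted p = 0.0319) and CESA8 by 0.68 (SE 0.17, limma adjusted p = 0.0278). CESA5 had 0.26, with a 95% interval of -0.11 to 0.62 (limma adjusted p = 0.227). The number of members called was 1 without the control S-type library, 2 without the salt S-type library and 2 without the salt L-type library. CESA3 was the member called in the first of these fits (limma adjusted p = 0.0345).

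Against nodal roots CESA3 alone passed the threshold as lower in L-type roots, where 5.02% of all tested genes did. It fell by 1.08 (SE 0.23, limma adjusted p = 0.038). The other 4 had -0.70 for CESA1, -0.68 for CESA8, -0.47 for CESA6 and -0.26 for CESA5, with adjusted p of 0.07, 0.0542, 0.143 and 0.288. An unadjusted p under 0.05 (limma) was reached by 4 of the 5, and by 6375 of the 20136 tested genes. The count of members called was 0 when any of the other 5 libraries was left out, 3 without the salt L-type library (CESA1, CESA3 and CESA8) and 3 by DESeq2.

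The L-type against nodal difference was larger under control than under salt. CESA3 had a log2 ratio of -1.52 under control and -0.63 under salt, and CESA1 had -1.06 and -0.34. CESA8 had -0.96 and -0.41, CESA5 had -0.49 and -0.03, and CESA6 had -0.57 and -0.37. At least 2-fold lower in L-type than nodal roots were 2 of the 5 genes within control, where 8.04% of compared genes were, and 0 within salt, where 3.06% were. In S-type against nodal roots 4 of the 5 were at least 2-fold lower within control and 4 within salt, where 20.5% and 16.9% of compared genes were. With 1 library on each side, this change between treatments could not be tested.

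The secondary wall genes showed the same order of root types at a wider span. CESA4, CESA7 and CESA9 had log2 differences of -5.24, -5.29 and -5.66 in S-type against nodal roots (limma adjusted p of 0.000235, 0.000241 and 0.000241), and the 95% interval of each lies below that of every primary wall gene. The summed FPKM of the 5 primary wall genes was 5.86 times that of the 3 secondary wall genes in nodal, 20.8 times in L-type and 92.3 times in S-type roots under control. FPKM is the authors' fragment count scaled to transcript length and library size. In S-type roots the secondary wall genes rested on 98 fragments under control and 146 under salt in all, so the ratio there is loose.

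CESA2, a further CESA gene whose name was checked, lay within the range of the primary wall members, with -1.81 (SE 0.19, limma adjusted p = 0.000756) in S-type against nodal and 1.24 (SE 0.19, limma adjusted p = 0.00596) in L-type against S-type roots. Its FPKM was 5.62 to 18.9 over the libraries, below that of every member in every library.

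**Figure D2:**
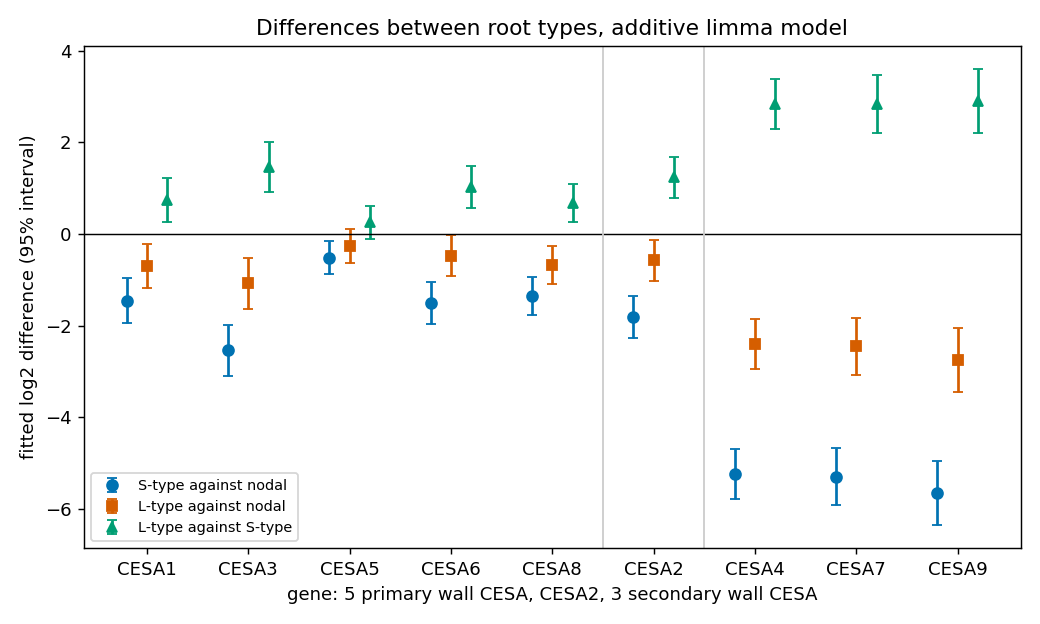
Fitted log2 differences between root types with 95% intervals (vertical axis) for the 5 primary wall CESA genes, CESA2 and the 3 secondary wall CESA genes (horizontal axis), from 6 libraries. S-type against nodal runs from -0.52 for CESA5 to -2.54 for CESA3 among the members and reaches -5.66 for CESA9.

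Other genes of wall synthesis were taken from lists made together with the members, of which 2 of 9 partner genes, 3 of 6 genes of UDP-glucose supply and 10 of 11 cellulose synthase-like genes passed the check of names. GLU3, a membrane-bound endoglucanase needed for root cellulose in rice, fell by 0.80 in S-type against nodal roots (limma adjusted p = 0.0068), and GLU1 of the same enzyme family had -0.19 (adjusted p = 0.367). Of 9 tested genes of the cellulose synthase-like families CSLC, CSLD and CSLF, 7 were lower and 2 higher in S-type than in nodal roots, with a median of -0.89. Over all 20136 tested genes 5630 were lower and 5456 higher in this comparison. CSLC3, of the family that makes the xyloglucan backbone in Arabidopsis, fell by 2.19, and CSLD1, which root hairs need in rice, fell by 1.49. CSLD2 was higher by 1.08 and CSLC9 by 0.38 (limma adjusted p of 0.0137 and 0.0415). The 2 tested sucrose synthases, which make UDP-glucose from sucrose, were not lower in S-type roots. SUS4 was higher in S-type than nodal roots by 1.23 (limma adjusted p = 0.00274), and SUS2 had 0.37 (adjusted p = 0.116). SUS3 was below the filter. Against S-type roots, L-type roots were higher for GLU1 by 0.67 and GLU3 by 0.55 (limma adjusted p of 0.0251 and 0.0398), for 4 of the 9 cellulose synthase-like genes and for 0 of the 2 sucrose synthases, and 2 cellulose synthase-like genes were lower. Here 3784 of all 20136 tested genes were higher and 3064 lower. CSLC3 was higher by 1.73 and CSLD4 by 1.40, and CSLD1 was lower, with -1.14. Against nodal roots CSLD1 was lower in L-type roots, with -2.63 (limma adjusted p = 0.0115), and SUS4 was higher by 1.45 (limma adjusted p = 0.0181), and the other tested genes of these 3 lists did not pass. For salt 0 of the 13 tested genes of these lists passed (limma), and the 2 with an unadjusted p under 0.05 were CSLF6, a mixed-linkage glucan synthase, with -0.52, and CSLD1, with 0.39.

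Markers of dividing cells moved with the CESA genes between S-type and the other roots. All 6 were lower in S-type than in nodal roots, with log2 differences of -1.72 to -0.85, and all 6 were higher in L-type roots when set against S-type ones. Their summed FPKM was 147.1 and 151.4 in the S-type libraries and 379.1 to 387.3 in the other 4, and none was at 0. Between L-type and nodal roots 0 of the 6 passed (limma, 0 also at an unadjusted p under 0.05 and 6 of 6 within 0.25 of 0), while the CESA members had -1.08 to -0.26. The summed FPKM of the members was 4.44 times that of these markers in control nodal, 4.54 times in control S-type and 2.51 times in control L-type roots. Under salt it was 3.14 times in nodal, 3.71 times in S-type and 2.31 times in L-type roots. The ratio was taken in FPKM only, and the members' own change under salt depended on the scale. Their summed scaled fragments were higher under salt in S-type roots (9226 and 9816) and L-type roots (15803 and 18778). In nodal roots they were lower (30873 and 24951). Against nodal roots the endodermis markers went the other way. Both were higher in S-type than in nodal roots, CASP1 by 1.01 and Lsi1 by 2.35 (limma adjusted p of 0.00167 and 0.000718), and in L-type than in nodal roots, each by 1.23 (limma adjusted p of 0.016 and 0.0314). Their summed FPKM was 404.6 and 691 in the nodal, 1149.5 and 1346 in the L-type and 2607 and 2696 in the S-type libraries, under control and salt, and neither was at 0. Most of this sum was Lsi1. CASP1 alone had 35.6 and 36.9 in nodal, 91.0 and 80.4 in L-type and 73.5 and 77.5 in S-type roots. In L-type against S-type roots the 2 markers parted, with -1.12 for Lsi1 (limma adjusted p = 0.0161) and 0.22 for CASP1 (limma adjusted p = 0.252). The part of dividing or endodermis cells in the CESA differences was not tested.

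The second comparison is between salt and control. No primary wall CESA gene passed the test of salt against control over the 3 root types. By limma 0 of the 5 passed, where 0.119% of all tested genes did. An unadjusted p under 0.05 was reached by 0 of the 5 and by 2115 of the 20136 tested genes. By edgeR and by DESeq2 on whole fragments 0 passed as well. The members' median log2 change was -0.014, against -0.0095 over all tested genes. The error of this test grows with any difference of the salt effect between root types.

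CESA3 had a log2 change of 0.18 with a 95% interval of -0.27 to 0.63 (limma adjusted p = 0.753), and CESA6 had -0.19 with -0.55 to 0.18 (limma adjusted p = 0.693). CESA1 had 0.06 with -0.33 to 0.45, CESA5 had -0.04 with -0.34 to 0.25 and CESA8 had -0.014 with -0.35 to 0.33. All 5 intervals hold 0, and the bounds farthest from it are 0.63 for CESA3 and -0.55 for CESA6. The secondary wall genes CESA4, CESA7 and CESA9 had 0.18, -0.05 and 0.07, and 0 of these 3 passed.

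Within each root type the salt ratio compares 1 library with 1 library, so there is no test, and the intervals given cover counting error only. In nodal roots all 5 members had fewer scaled fragments under salt. CESA6 had the lowest log2 ratio, -0.45 (counting interval -0.50 to -0.40), followed by CESA1 with -0.35 (-0.40 to -0.30) and CESA8 with -0.31 (-0.36 to -0.27). CESA5 had -0.29 (-0.37 to -0.21) and CESA3 had -0.17 (-0.21 to -0.12). The median was -0.31, against -0.01 over all tested genes. At least 2-fold apart were 0 of the 5, where 1.27% of compared genes were higher and 1.75% lower.

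In L-type roots 4 of the 5 members had more scaled fragments under salt. CESA3 stood highest, with a log2 ratio of 0.73 (counting interval 0.66 to 0.80), from 2293 to 5185 fragments as counted and from 2873 to 4769 scaled. CESA1 had 0.38 (0.31 to 0.45), CESA8 had 0.24 (0.17 to 0.31) and CESA5 had 0.17 (0.07 to 0.27). CESA6 went the other way, with -0.25 (-0.31 to -0.18). The median was 0.24, against 0.01 over all tested genes, and 0 of the 5 were at least 2-fold apart, where 1.64% of compared genes were higher and 4.22% lower.

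In S-type roots the members lay close to 0. CESA1 had 0.17 (0.08 to 0.26) and CESA6 had 0.16 (0.07 to 0.25). CESA8 had 0.06 (-0.03 to 0.14), CESA5 had 0.01 (-0.10 to 0.12) and CESA3 had -0.01 (-0.12 to 0.11). Here too 0 were 2-fold apart, where 1.63% of compared genes were higher and 1.8% lower.

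The opposite signs in nodal and L-type roots were shared by CESA1, CESA3, CESA5 and CESA8. A ratio below 0 in nodal and above 0 in L-type roots, with both counting intervals off 0, was found in 2.46% of the 16863 genes compared. In nodal and S-type roots CESA1 and CESA6 had such opposite signs, as did 2.63% of these genes. Both patterns were singled out after their values were seen. The secondary wall genes had the nodal and L-type pattern in scaled fragments as well, with nodal ratios of -0.35, -0.55 and -0.42 for CESA4, CESA7 and CESA9 and L-type ratios of 0.55, 0.58 and 0.81. In FPKM their L-type ratios were 0.08, -0.22 and 0.73. The summed FPKM of the dividing cell markers was 385.7 under control and 379.1 under salt in nodal roots, and 387.3 and 383.5 in L-type roots. Within this sum PCNA had an L-type log2 salt ratio of 0.25 (counting interval 0.09 to 0.42) and CDKB1;1 had -0.24 (-0.47 to -0.002). The L-type intervals of the other listed markers of dividing cells held 0. The part of dividing cells in the CESA salt ratios was not tested.

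**Figure D3:**
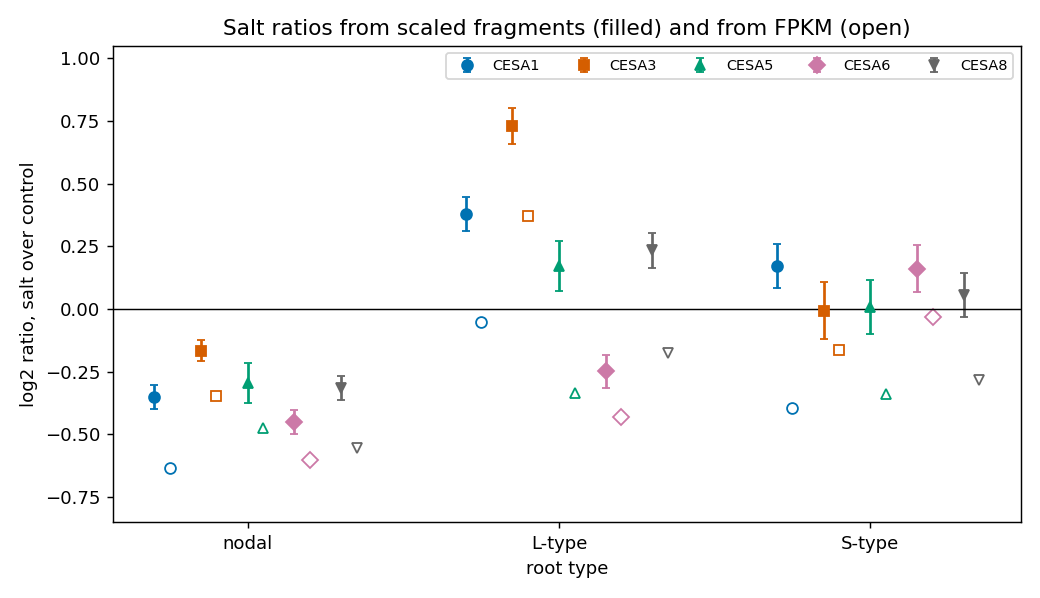
Log2 ratio of salt over control (vertical axis) for the 5 genes in each root type (horizontal axis), from scaled fragments (filled, with 95% counting intervals) and from FPKM (open). In scaled fragments nodal ratios run from -0.45 to -0.17 and L-type ratios from -0.25 to 0.73, and every open point lies below its filled point.

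The authors' FPKM gave lower salt ratios than the scaled fragments for all 5 genes in all 3 root types. In S-type roots CESA1 had an FPKM of 161 under control and 122 under salt, a log2 ratio of -0.40 where the scaled fragments gave 0.17. In L-type roots CESA5 had 112 and 88.9 FPKM, a log2 ratio of -0.33 against 0.17 in scaled fragments. CESA8 had -0.18 against 0.24 and CESA1 had -0.052 against 0.38 there. In S-type roots 4 of the 5 genes had a ratio above 0 in scaled fragments and below 0 in FPKM, where 6.77% of the genes compared did. The nodal ratios were below 0, and the L-type ratio of CESA3 above 0, on both scales.

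The gap lay in how many scaled fragments stood behind 1 FPKM. For CESA1 this was 18.4 in control and 22.5 in salt nodal, 16.5 and 22.3 in L-type, and 13.2 and 19.6 in S-type roots. For CESA6, the member with the smallest spread, it was 16.5 and 18.3, 15.7 and 17.8, and 14.5 and 16.6 in the same order. It was higher under salt than under control for all 5 members in all 3 root types. The secondary wall genes were mixed. CESA4 also had more under salt in each root type, with 19.3 and 22.7 in nodal, 16.8 and 23.2 in L-type and 11.8 and 22.2 in S-type roots. CESA7 was higher under salt in L-type roots, with 12.7 and 22.3, and lower in nodal roots, with 21.2 and 20.3, and in S-type roots, with 23.4 and 20.1. CESA9 had 24.8 to 25.1 in all 6 libraries. The shift is thus not particular to the primary wall genes.

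A scaled ratio above the FPKM ratio by at least 0.1 on the log2 scale in all 3 root types was found for 5 of 5 members and for 5.31% of the 16863 genes compared. The limit of 0.1 was set after the values were seen. FPKM is divided by a transcript length, which for a gene with several transcripts depends on the share given to each. Transcript values were not used here, so the part of transcript make-up in this gap was not tested.

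**Figure D4:**
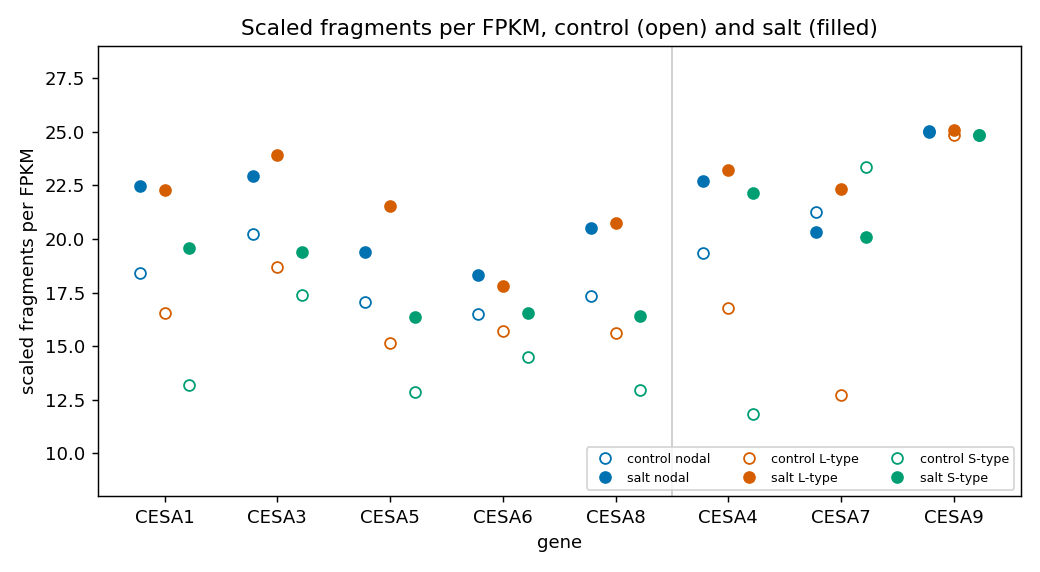
Scaled fragments per FPKM (vertical axis) for the 5 primary wall genes and the secondary wall genes CESA4, CESA7 and CESA9 (horizontal axis), with control libraries open and salt libraries filled. Every member has more scaled fragments per FPKM under salt, for example 13.2 and 19.6 for CESA1 in S-type roots, as has CESA4, with 11.8 and 22.2 there. CESA7 has more in L-type roots only, and CESA9 stays between 24.8 and 25.1.

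The same gap touches the root type comparison. CESA5 had log2 ratios of 0.16 and 0.32 in L-type against S-type roots in scaled fragments, under control and salt, and -0.07 and -0.07 in FPKM. In S-type against nodal roots every member was lower on both scales, with FPKM ratios under control of -2.37 for CESA3, -1.60 for CESA6, -1.21 for CESA1, -1.10 for CESA8 and -0.24 for CESA5.

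The third question is how the 5 genes compare with each other, for which FPKM was used because it is per length. In control nodal roots CESA6 had 411, CESA3 had 408, CESA8 had 379, CESA1 had 373 and CESA5 had 140.0 FPKM. The first 4 were thus near one another and CESA5 stood well below them. By FPKM these 4 ranked 308 to 352 among all gene models in control nodal roots, and CESA5 ranked 1050.

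In control S-type roots the order was different. CESA8 led with 176 FPKM, followed by CESA1 with 161, CESA6 with 135, CESA5 with 118 and CESA3 with 78.1. CESA3 went from near the top in nodal roots to the bottom in S-type roots, and CESA5, lowest in nodal and L-type roots, was above it. The ratio of CESA3 to CESA5 in FPKM was 2.92 in nodal, 1.37 in L-type and 0.661 in S-type roots under control, and 3.20, 2.24 and 0.748 under salt.

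As shares of their summed FPKM, CESA3 made up 23.9% in nodal, 15.8% in L-type and 11.7% in S-type roots under control. CESA5 made up 8.18%, 11.5% and 17.7% in the same order. CESA1 stayed between 20.2% and 24.1% and CESA8 between 21.7% and 26.3% over the 6 libraries.

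Salt went with another make-up in L-type roots. The share of CESA3 was 15.8% under control and 22.5% under salt, and that of CESA6 was 29.9% and 24.3%. The number of fragments of CESA3 per fragment of CESA6, both counted in the same library, was 0.63 in control and 1.24 in salt L-type roots, against 1.22 and 1.48 in nodal roots and 0.695 and 0.619 in S-type roots. This ratio needs no scaling between libraries. With 1 library per group its spread between plants is unknown.

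**Figure D5:**
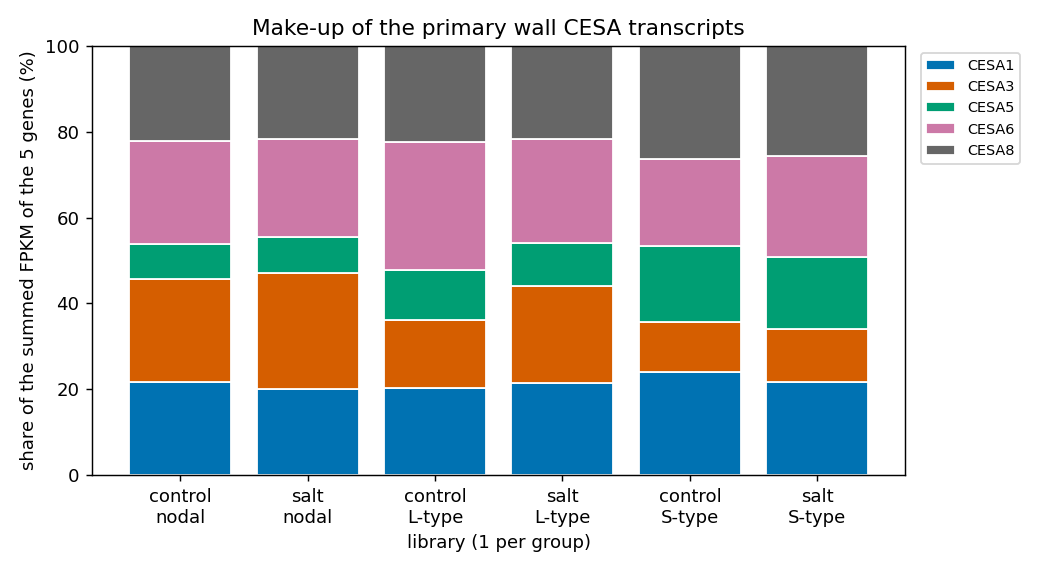
Share of the summed FPKM of the 5 genes (vertical axis, %) that each gene makes up in each of the 6 libraries (horizontal axis). The CESA3 share is 23.9% in control nodal and 11.7% in control S-type roots, and the CESA5 share is 8.18% and 17.7%.

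In the authors' deposited table, which tests each of the 15 pairs of libraries with Cuffdiff, 0 of the 75 tests of the members were called, where 0.321% of all tests were. The lowest p there was that of CESA3 between salt S-type and control nodal roots, with p = 0.0253 and q = 0.668 in the authors' deposited table. Of the 75 tests 2 had a p under 0.05.

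Over the 6 libraries the members went together. The log2 level of each gene had a Pearson r with the mean of the other 4 of 0.995 for CESA8, 0.993 for CESA1, 0.978 for CESA3, 0.965 for CESA5 and 0.942 for CESA6. These are descriptions over 6 libraries that share root types, not tests. Of 14937 genes ranked by their likeness, 1270 had an r of at least 0.95 with the members' mean, so a profile of this kind is common here. The 3 most alike were Os03g0861100 and Os03g0638000 on chromosome 3 and Os07g0633600 on chromosome 7, with r of 0.9996, 0.9994 and 0.9991. CESA7, CESA4 and CESA9 ranked 41, 46 and 81. CESA2 ranked 656, and Lsi1, which had its highest levels in S-type roots, had an r of -0.97.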

How the data were processed

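Per the submitters' processing notes, Cuffdiff 2.2.1, Cufflinks 2.2.1, TopHat2 2.0.11, Bowtie and Trimmomatic 0.32 were used with IRGSP-1.0. Their settings, and how reads shared by similar CESA genes were counted, are not given in the sources used here, so levels of these paralogs carry that uncertainty. The values of the count table are a signal that the authors deposited after multiplying each library's fragment counts by 1 factor. Between 99.90% and 99.96% of its positive values were whole fragments within 0.02. The authors' second table holds FPKM per library and p-values and q-values for each pair of libraries.

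Genes were kept by edgeR filterByExpr by treatment. TMM-scaled values plus 1 were put on a log2 scale and tested with limma 3.58.1, using its trend option, Benjamini-Hochberg adjusted over 20136 genes, with root type and treatment as terms. On the recovered fragments edgeR 4.0.16 called 14 genes higher and 14 lower for salt, 5468 higher and 5639 lower for S-type against nodal, 3637 and 3035 for L-type against S-type and 1332 and 1107 for L-type against nodal roots. DESeq2 1.42.0 was a further alternative. Pairs were compared as log2 ratios of scaled fragments plus 1, with exact conditional binomial 95% intervals. These cover counting error only, since each group has 1 library. They treat fragments as independent molecules, and are too narrow where fragments are not independent.

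Members and lists were chosen with earlier results of these data known. Symbols were kept when a gene table of the assembly ASM3414082v1 placed them on the same chromosome, within 2 Mb of the position expected from the listed genes there, at 0.4 to 1.6 times the length. The shift was added after 3 symbols of chromosome 9, which lies 4.38 Mb apart in the assemblies, were seen to fail. Of 50 symbols 36 passed. Named were all members, the secondary wall CESA genes, up to 4 genes per other list by highest and lowest fitted change, and the 3 genes of most similar profile. Further list members are named where a list has few.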

Additional observations from a re-analysis of the deposited data

Results flagged for a closer look

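For 5 members the salt ratio had opposite signs in 2 root types, with both counting intervals off 0. None of these differences was tested, since each rests on 1 library per group. The log2 salt ratio in L-type minus that in nodal roots was 0.73 for CESA1, 0.90 for CESA3, 0.46 for CESA5 and 0.55 for CESA8. In S-type minus nodal roots it was 0.52 for CESA1 and 0.61 for CESA6. In L-type minus S-type roots it was -0.41 for CESA6. In FPKM the L-type ratio was above 0 for CESA3 and below 0 for CESA1, CESA5 and CESA8, and the S-type ratios of CESA1 and CESA6 were below 0, so opposite signs hold on both scales for CESA3 in L-type against nodal roots and for none of the other 6 differences.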

How the results depend on the processing

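With 1 library per group, no pairing by replicate could be added to the model. Salt was compared within root types, and root types within treatments, since both are terms of the model. Of 15 alternatives per root type comparison and 18 for salt, the count of 5 members called for S-type against nodal roots ranged from 4 to 5, and that of 0 for salt was 0 in all 18. For L-type against nodal roots DESeq2 called 3 members, and 936 of the 20136 tested genes as lower. Leaving out 1 library at a time gave 1 to 4 members for L-type against S-type, 0 to 3 for L-type against nodal and 4 to 5 for S-type against nodal roots. These fits have fewer samples. Over all genes the same fits called 3134 to 5936, 10 to 2873 and 6429 to 11928 genes, and 0 to 46 for salt. The 24 genes called for salt became 2 with a mean of at least 50, 172 by DESeq2, 0 without the root type term (limma, 199 at an unadjusted p under 0.05), and 1, 44 and 3 without both S-type, L-type or nodal libraries. The fitted salt change reversed without both L-type libraries for CESA1 (-0.076) and CESA3 (-0.073), and without both nodal libraries for CESA5 (0.092) and CESA8 (0.15), and for CESA8 without a filter (0.00061). Leaving out 1 library gave -0.077 to 0.27 for CESA1, -0.075 to 0.36 for CESA3, -0.13 to 0.086 for CESA5 and -0.12 to 0.14 for CESA8. In FPKM the salt ratios of CESA1, CESA3, CESA5, CESA6 and CESA8 were -0.63, -0.35, -0.47, -0.60 and -0.55 in nodal, -0.40, -0.16, -0.34, -0.032 and -0.28 in S-type and -0.052, 0.37, -0.33, -0.43 and -0.18 in L-type roots. The cause was not tested. The members rested on 1057 to 9505 fragments per library, and no spread between plants could be measured.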
